A study of Mus musculus with 6 samples.

Results

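Oligodendrocyte precursor genes were followed in RNA-seq of cultured mouse cortical cells. The set was chosen by name, with earlier results of these data known. It consists of 10 genes, Olig1, Olig2, Sox10, Pdgfra, Cspg4, Nkx2-2, Gpr17, Bcas1, Enpp6 and Lhfpl3. All 10 had a row among the 55367 gene rows, and all 10 were among the 16976 genes with enough counts to be tested. The cells came from the cerebral cortex of C57BL/6J mice at postnatal day 1 and were kept for 2 days in vitro, giving 3 wild-type (WT) and 3 Fmr1-KO libraries. Every difference is given for Fmr1-KO relative to WT. Fmr1 encodes FMRP, an RNA-binding protein whose loss causes fragile X syndrome, and no other allele or treatment was named for either genotype. The labels call the samples cortical neurons, whereas the study states that the dissociated cells were depleted of astrocytes with beads against ACSA-2 and of myelin with a second kind of bead before plating, so the cultures held whichever other cells came through these steps.

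Oligodendrocyte precursor cells (OPCs) are dividing glial cells that spread through the brain around birth and later mature into the oligodendrocytes that wrap axons in myelin. Platelet-derived growth factor (PDGF) acting on the receptor encoded by Pdgfra keeps OPCs dividing, while the transcription factors encoded by Olig1, Olig2, Sox10 and Nkx2-2 set lineage identity and drive maturation. Gpr17, Bcas1 and Enpp6 are turned on as a precursor commits to becoming an oligodendrocyte, and most of them are turned down again in mature cells.

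All 10 genes were lower in Fmr1-KO relative to WT, at 57.3% to 76.1% of the WT level. In every case the 3 Fmr1-KO libraries lay below the 3 WT libraries. Enpp6 fell furthest (log2 fold change -0.80), and the smallest decreases were those of Pdgfra (-0.45) and Nkx2-2 (-0.39). Counts per gene and library ran from 443 to 19608, so none of these values rested on few reads.

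In the quasi-likelihood test of edgeR, adjusted over all tested genes by Benjamini-Hochberg, 10 of the 10 were called lower at an adjusted P under 0.05 and 0 were called higher. Of all tested genes, 21.9% were called lower and 20.7% were called higher, so a call by itself was common in this comparison. Groups that did not overlap, with Fmr1-KO below WT, were found for 10 of the 10 genes and for 26.3% of all tested genes. A call of lower together with a log2 fold change of -0.5 or less was found for 8 of the 10, against 6.84% of all tested genes. The median log2 fold change was -0.67 over the 10 genes and 0.006 over all tested genes. Because the set was chosen with earlier results of these data known, these shares and medians describe it and do not test it. In bulk RNA, fewer cells of a type and less RNA per cell cannot be told apart. The study calls its samples independently derived, while the labels name no litter or culture. If libraries of a genotype shared one, the P values measure only the spread between these libraries.

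**Figure D1:**
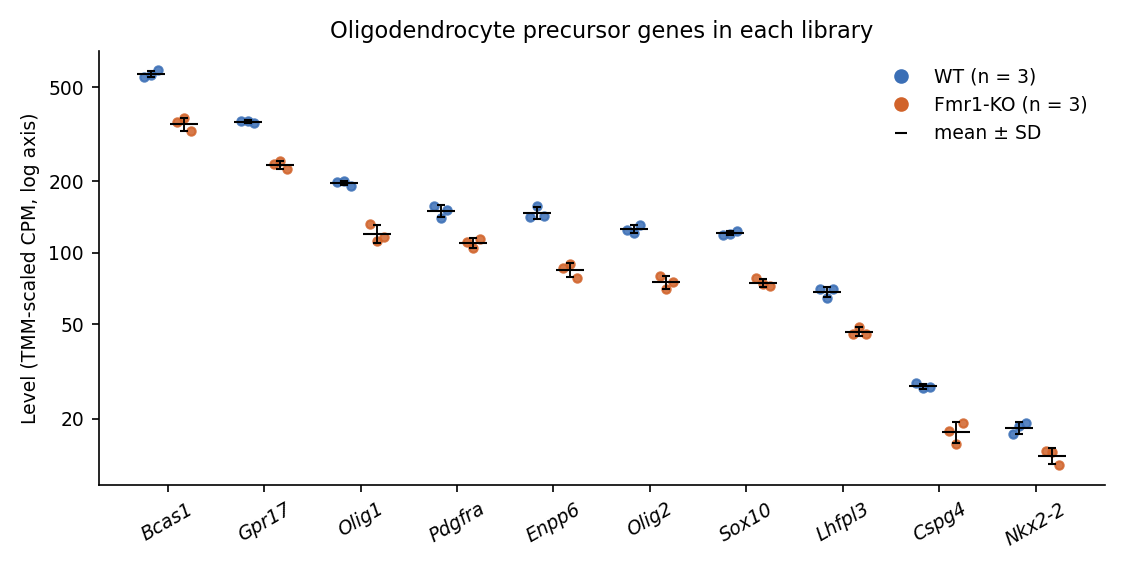
Level of each gene in each library, in CPM (counts scaled to a common library total with TMM, log axis), with WT in blue, Fmr1-KO in orange and black bars for the mean ± SD (n = 3 per genotype). WT means run from 568 CPM (Bcas1) to 18.3 CPM (Nkx2-2), not corrected for gene length, and for each gene the orange points lie below the blue points.

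The targeted gene and the depth were checked first. Levels below are in CPM, and ± is the SD over the 3 libraries of a genotype. Total counts ran from 30348556 to 35126207. Fmr1 had a mean of 113 CPM in WT and 57.4 CPM in Fmr1-KO, and all 3 Fmr1-KO libraries were the lower ones. Reads of Fmr1 thus remained at 50.6% of the WT level, and the counts do not show whether they come from a transcript that can be translated. Neuronal markers were abundant in every library, with a summed level of 5338 to 5481 CPM over 12 genes in WT and 4501 to 4709 CPM in Fmr1-KO. The 10 OPC genes summed to 1769 to 1798 CPM in WT and 1085 to 1158 CPM in Fmr1-KO.

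Olig1 and Olig2 encode related basic helix-loop-helix transcription factors and are neighbours on chromosome 16 (GRCm38), with 41.1 kb between Olig2 (91225457 to 91228677) and Olig1 (91269772 to 91271933). Olig2 is required for the lineage to form, and Olig1 acts mainly in maturation. Olig1 had 6912, 6635 and 6417 counts in WT replicates 1, 2 and 3, and 4317, 3450 and 4050 counts in the Fmr1-KO replicates. Olig2 had 4348, 4001 and 4362 counts in WT and 2605, 2164 and 2617 counts in Fmr1-KO. The highest Fmr1-KO library stayed well below the lowest WT library for both genes. In CPM, Olig1 fell from 197 ± 4.42 to 121 ± 10.7 (n = 3 each) and Olig2 from 126 ± 4.87 to 75.3 ± 4.71. The log2 fold changes were -0.71 (SE 0.04, adjusted P 4.44e-11 by edgeR) and -0.74 (SE 0.04, adjusted P 1.11e-11 by edgeR). The ratio of Olig1 to Olig2 counts was 1.59, 1.66 and 1.47 in WT and 1.66, 1.59 and 1.55 in Fmr1-KO, so its values overlapped between genotypes.

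Sox10, on chromosome 15 from 79154908 to 79165240, encodes the SOX transcription factor that is kept on throughout the lineage and acts on myelin genes. It had 4139, 3982 and 4134 counts in WT and 2546, 2256 and 2526 counts in Fmr1-KO. The WT libraries were within 1.04-fold of each other in CPM, and the lowest of them was 1.52 times the highest Fmr1-KO library. Sox10 fell by 0.69 on the log2 scale (SE 0.04, adjusted P 2.96e-12 by edgeR), to 61.8% of WT (95% interval 58.6% to 65.1%). This placed it beside Olig1 and Olig2, whose intervals were 57.4% to 65.2% and 56.5% to 63.8%.

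Nkx2-2, on chromosome 2 from 147177546 to 147194243, encodes a homeodomain factor that helps to start differentiation in the lineage. It had 598, 614 and 638 counts in WT and 476, 443 and 443 counts in Fmr1-KO. The groups were closer here than for the other transcription factors, and the lowest WT library was 1.18 times the highest Fmr1-KO library in CPM. Nkx2-2 went from 18.3 ± 0.985 CPM in WT to 13.9 ± 1.06 CPM in Fmr1-KO (n = 3 each), or -0.39 on the log2 scale (SE 0.07, 95% interval -0.54 to -0.25, adjusted P 9.78e-05 by edgeR). Its call was the only one of the 10 that an alternative removed: with a minimum fold change of 1.2 required, the adjusted P was 0.0739 by edgeR.

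Pdgfra, on chromosome 5 from 75152292 to 75198215, encodes the PDGF receptor alpha that defines OPCs, and fibroblast-like cells of the brain coverings also use it. It had 5478, 4659 and 5081 counts in WT and 3613, 3214 and 3995 counts in Fmr1-KO. All Fmr1-KO values were below all WT values, with a narrower gap than that of the OLIG genes. Pdgfra went from 150.3 ± 8.52 CPM in WT to 110.3 ± 4.97 CPM in Fmr1-KO (n = 3 each), or -0.45 on the log2 scale (SE 0.04, 95% interval -0.53 to -0.36, adjusted P 1.45e-08 by edgeR).

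Cspg4, on chromosome 9 from 56865033 to 56899870, encodes the NG2 proteoglycan, a surface marker of OPCs that pericytes also carry. It had 981, 893 and 906 counts in WT and 575, 480 and 670 counts in Fmr1-KO. Its Fmr1-KO libraries were the most spread of any gene in the set, the highest being 1.23 times the lowest in CPM. Even so, the lowest WT library was 1.40 times the highest Fmr1-KO library. The log2 fold change of Cspg4 was -0.64 (SE 0.06, 95% interval -0.78 to -0.51, adjusted P 5.69e-08 by edgeR).

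Lhfpl3, on chromosome 5 from 22746059 to 23275597, encodes a tetraspan membrane protein that is enriched in OPCs. It had 2447, 2129 and 2343 counts in WT and 1479, 1494 and 1580 counts in Fmr1-KO. Neither group came near the other. Lhfpl3 went from 68.3 ± 3.41 CPM in WT to 46.6 ± 1.94 CPM in Fmr1-KO (n = 3 each), or -0.55 on the log2 scale (SE 0.04, adjusted P 1.72e-09 by edgeR).

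Gpr17, on chromosome 18 from 31942997 to 31949636, encodes a G protein-coupled receptor of committed precursors. It had 12489, 11953 and 11741 counts in WT and 7679, 7446 and 7829 counts in Fmr1-KO. Libraries of 1 genotype differed little, by 1.03-fold in WT and 1.08-fold in Fmr1-KO in CPM. Gpr17 went from 358 ± 5.09 CPM in WT to 235 ± 9.18 CPM in Fmr1-KO (n = 3 each), or -0.61 on the log2 scale (SE 0.03, adjusted P 2.91e-12 by edgeR).

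Bcas1, on chromosome 2 from 170346991 to 170427845, encodes a cytoplasmic protein of early myelinating oligodendrocytes. It had 19139, 18676 and 19608 counts in WT and 11555, 11286 and 11325 counts in Fmr1-KO. Of the summed CPM of the 10 genes, Bcas1 alone made up 31.1% to 32.7% in WT, 30.7% and 32.3% in Fmr1-KO replicates 1 and 2, and 326 of 1085 CPM in replicate 3. It went from 568 ± 18.6 CPM in WT to 349.8 ± 22.1 CPM in Fmr1-KO (n = 3 each), or -0.70 on the log2 scale (SE 0.04, adjusted P 5.24e-12 by edgeR). Without Bcas1, the summed level was 1214 ± 3.92 CPM in WT and 779 ± 21.8 CPM in Fmr1-KO (n = 3 each), which is 64.2% of WT, against 63.4% with it.

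Enpp6, on chromosome 8 from 46986887 to 47096762, encodes a choline-specific phosphodiesterase of newly forming oligodendrocytes. It had 4946, 5223 and 4776 counts in WT and 2802, 2750 and 2719 counts in Fmr1-KO. The lowest WT library was 1.58 times the highest Fmr1-KO library in CPM, the widest gap of the 10 genes. Enpp6 went from 148 ± 8.82 CPM in WT to 84.7 ± 5.98 CPM in Fmr1-KO (n = 3 each), or -0.80 on the log2 scale (SE 0.05, 95% interval -0.90 to -0.71, adjusted P 1.43e-11 by edgeR). Only 3.35% of all tested genes had a lower log2 fold change than Enpp6, while 9.20% were below Pdgfra and 10.8% below Nkx2-2.

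**Figure D2:**
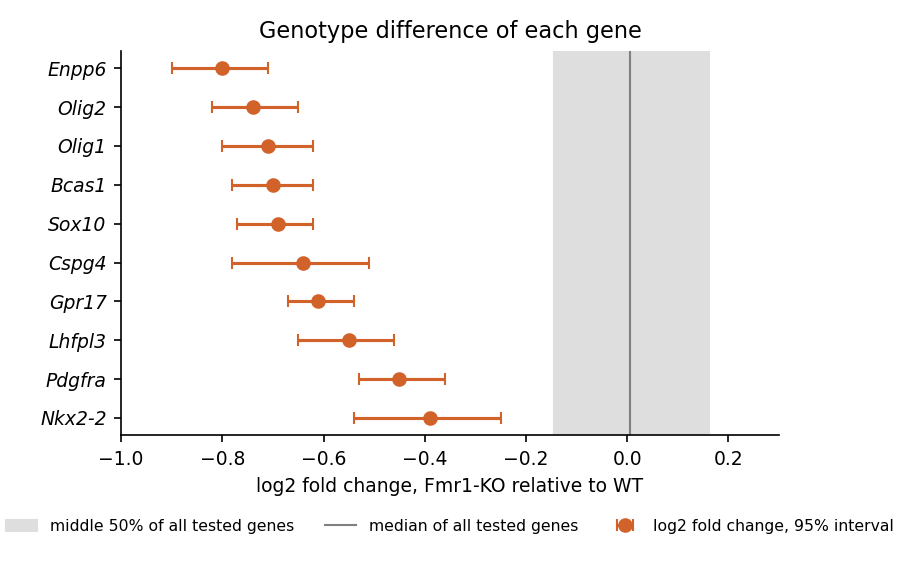
Log2 fold change of each gene, Fmr1-KO relative to WT (points), with its 95% interval (bars), beside the median and the middle 50% of all 16976 tested genes (grey line and band, -0.145 to 0.162). Every interval lies to the left of the band, from Enpp6 at -0.80 to Nkx2-2 at -0.39.

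The estimated decreases were not of the same size in all genes. The 95% interval of Enpp6 (-0.90 to -0.71) did not overlap that of Pdgfra (-0.53 to -0.36) or Nkx2-2 (-0.54 to -0.25). Nor did it overlap that of Gpr17 (-0.67 to -0.54) or Lhfpl3 (-0.65 to -0.46). The intervals of Olig1, Olig2, Sox10, Bcas1, Cspg4 and Gpr17 overlapped with each other. Ratios of counts within a library, in which depth cancels, were taken for 6 pairs of genes. The ratio of Enpp6 to Pdgfra counts was 0.903, 1.12 and 0.940 in WT and 0.776, 0.856 and 0.681 in Fmr1-KO, so that the groups did not overlap, and the ratio of Enpp6 to Nkx2-2 counts, at 8.09 ± 0.534 and 6.08 ± 0.169, did not overlap either. The ratio of Cspg4 to Pdgfra counts was 0.183 ± 0.00750 in WT and 0.159 ± 0.00919 in Fmr1-KO (n = 3 each), again with no overlap. Bcas1 to Pdgfra (3.79 ± 0.265 in WT and 3.18 ± 0.339 in Fmr1-KO) and Gpr17 to Pdgfra (2.39 ± 0.157 and 2.13 ± 0.179) overlapped between genotypes. These ratios, and Enpp6 as the gene with the largest decrease, were chosen after the values had been seen. No difference between genes was tested.

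Compared per length of annotated exon, in CPM per kilobase (kb), the levels in WT ranged over 65.3-fold. Bcas1 was highest (150.4 ± 4.93 CPM per kb, SD, n = 3), followed by Olig1 (91.2 ± 2.04), Gpr17 (68.8 ± 0.979), Olig2 (49.6 ± 1.92) and Sox10 (39.7 ± 0.810). Lower down came Enpp6 (23.1 ± 1.38), Lhfpl3 (21.3 ± 1.06), Pdgfra (15.0 ± 0.850), Nkx2-2 (6.36 ± 0.343) and Cspg4 (2.30 ± 0.0557). No neighbours in this order overlapped among the WT libraries, although Enpp6 and Lhfpl3 were close. The order was the same in Fmr1-KO except for these neighbours, where Lhfpl3 (14.5 ± 0.603 CPM per kb) lay above Enpp6 (13.2 ± 0.932). The lengths count every annotated exon of a gene once, so a gene that uses a short isoform has a higher true level per length than the value given.

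**Figure D3:**
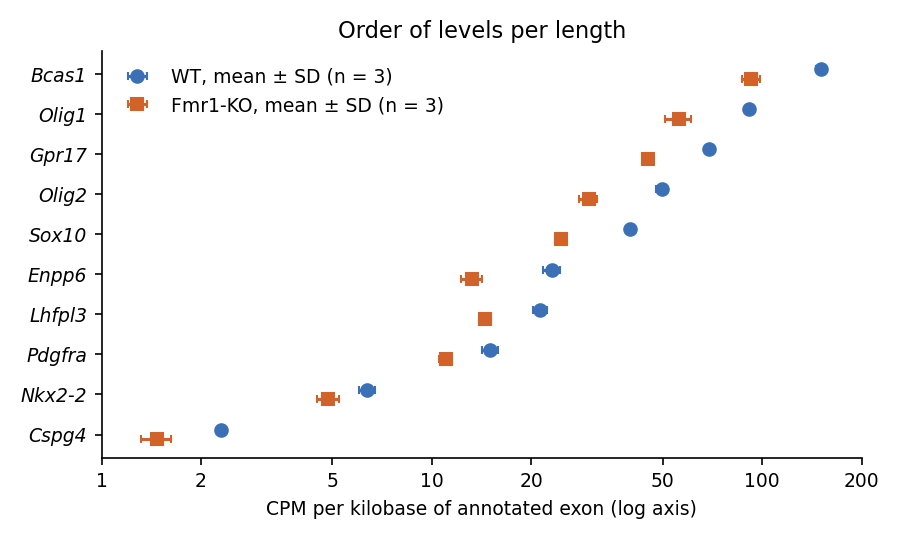
Level of each gene in CPM per kilobase of annotated exon (log axis), as mean ± SD (n = 3) for WT (blue circles) and Fmr1-KO (orange squares), ordered by the WT level. Bcas1 is at 150.4 in WT and Cspg4 at 2.30, and the order changes between genotypes only at Enpp6 and Lhfpl3.

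Neighbouring transcripts were examined because several of the loci hold antisense genes. The study counted reads by strand, which keeps opposite strands apart. Gpr17 lies inside Lims2, a gene on the opposite strand whose exons overlap it. Lims2, which is also in the list of committed precursor genes below, had 19.1 CPM in WT and 14.6 CPM in Fmr1-KO, against 358 and 235 CPM for Gpr17, and was also called lower (log2 fold change -0.39, adjusted P 2.95e-05 by edgeR). Nkx2-2os, antisense to Nkx2-2, had 9 to 26 counts per library and a log2 fold change of -0.94 (SE 0.32, adjusted P 0.0205 by edgeR). Bcas1os1, on the strand opposite to Bcas1, had 9 to 21 counts per library and was not called (-0.24, adjusted P 0.635 by edgeR). Around Lhfpl3, 6030443J06Rik lies on the same strand, where counting by strand does not separate it, but its exons do not overlap those of Lhfpl3. It had 23 to 36 counts per library and was not called (-0.12, adjusted P 0.717 by edgeR). A930003O13Rik, on the opposite strand, had 24 to 43 counts and was not called (-0.45, adjusted P 0.110 by edgeR). The other 12 annotated genes that overlap a member were below the filter, with at most 15 counts in a library, and the highest of them was 6430503K07Rik at the Nkx2-2 locus. Those over Olig1 (Gm15966), Pdgfra (Gm42802, Gm42803 and Mir7025) and Bcas1 (Bcas1os2) had 5 or fewer counts in each library, as did Gm21846, Gm43169, Gm6564 and Gm42948 over Lhfpl3, and Gm45600 and 4930579M01Rik over Enpp6 had 0. For Olig2, Sox10 and Cspg4 no overlapping gene was annotated.

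Promoter sequence is shown for the genes at the ends of the range, Enpp6 and Nkx2-2, since the members that moved together include the transcription factors of the lineage. RefSeq promoter windows (GRCm38.p6, 250 bases before to 50 after a start site) were at hand for 6 of the 10 genes, namely Olig2, Pdgfra, Cspg4, Nkx2-2, Enpp6 and Lhfpl3. They were searched on both strands for letters that factors of these families are known to bind. CATCTG, an E-box of the OLIG2 type, was in 2 of the 6 windows (Pdgfra and Nkx2-2) and in 17.2% of all 32851 promoter windows. ACAATG, a SOX core, was in 2 (Olig2 and Enpp6) and in 12.6% of all windows, and CACTTNA, an NKX2 core, was in 2 (Nkx2-2 and Enpp6) and in 11.5% of all. CATATG and ACAAAG were in 0 of the 6, against 3.91% and 18.7% of all windows. No match overlapped another. A match is a description of the letters and not a bound site. The 250 bases before the start are printed 5′ to 3′ on the gene's strand, with the matches, on either strand, in capitals. The window of Enpp6 is chr8:46986637-46986886 (plus strand), upstream of its first exon. The window of Nkx2-2 is chr2:147186403-147186652 (minus strand), which lies within the annotated span of the gene because longer transcripts start further upstream.
Enpp6: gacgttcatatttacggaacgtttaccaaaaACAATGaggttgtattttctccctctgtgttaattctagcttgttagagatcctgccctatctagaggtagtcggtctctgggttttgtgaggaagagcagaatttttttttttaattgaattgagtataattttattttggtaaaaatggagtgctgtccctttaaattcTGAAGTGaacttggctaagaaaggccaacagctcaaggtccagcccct
Nkx2-2: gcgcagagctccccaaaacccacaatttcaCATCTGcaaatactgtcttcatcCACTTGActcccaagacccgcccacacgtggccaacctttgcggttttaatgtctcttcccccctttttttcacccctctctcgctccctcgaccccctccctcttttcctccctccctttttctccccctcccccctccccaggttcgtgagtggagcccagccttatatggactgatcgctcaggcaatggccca

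Other genes of the lineage were then counted, starting with genes enriched in OPCs that are not among the 10. Of 15 such genes, 8 were called lower, 1 was called higher and 6 were not called, with a median log2 fold change of -0.15. Neu4, a sialidase, fell from 6.98 to 3.40 CPM (log2 fold change -1.04, SE 0.11, adjusted P 6.57e-08 by edgeR) and had the largest decrease in this list. Tnr, which encodes the matrix protein tenascin-R, fell from 558 to 386 CPM (-0.53, SE 0.03, adjusted P 8.28e-11 by edgeR). In contrast, Ptprz1, a receptor phosphatase, rose from 928 to 1008 CPM (0.12, SE 0.03, adjusted P 0.00281 by edgeR). Vcan, a matrix proteoglycan, did not pass the test (-0.05, 95% interval -0.13 to 0.03). The log2 fold changes of the 6 genes not called ran from -0.06 (C1ql1) to 0.10 (Megf11). The summed level of the 15 genes was 2689 to 2789 CPM in WT and 2493 to 2615 CPM in Fmr1-KO, most of it from Ptprz1, Tnr and Vcan.

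Genes of committed precursors and newly formed oligodendrocytes were nearly all lower. Of 14 genes, 13 were called lower and 0 higher, and the median log2 fold change was -0.47. Tmem163, a zinc transporter, had the largest decrease (-1.02, SE 0.05), from 39.4 to 19.5 CPM (adjusted P 3.52e-12 by edgeR). Fyn, a kinase that acts in myelin initiation and is also used by neurons, Sirt2, a deacetylase of the lineage, and Tns3, an adhesion protein, had the highest CPM of the list, with log2 fold changes of -0.38, -0.52 and -0.42. The only gene of the list that was not called, Nkx6-2, had 1.54 CPM in WT and 1.24 CPM in Fmr1-KO.

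Of 18 myelin genes, 14 were called lower and 0 higher, and the median log2 fold change of all 18 was -0.76. The 4 that were not called were at most at 1.19 CPM in either genotype, with log2 fold changes of 0.49 (Ermn), 0.33 (Aspa), 0.26 (Mal) and -0.22 (Gjb1). Mbp and Cnp, which encode major myelin proteins, had log2 fold changes of -0.92 and -0.76. Mobp, also a myelin protein, had the largest decrease (-1.67, SE 0.26, adjusted P 2.15e-05 by edgeR) at a low level of 1.82 CPM in WT and 0.567 CPM in Fmr1-KO.

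**Figure D4:**
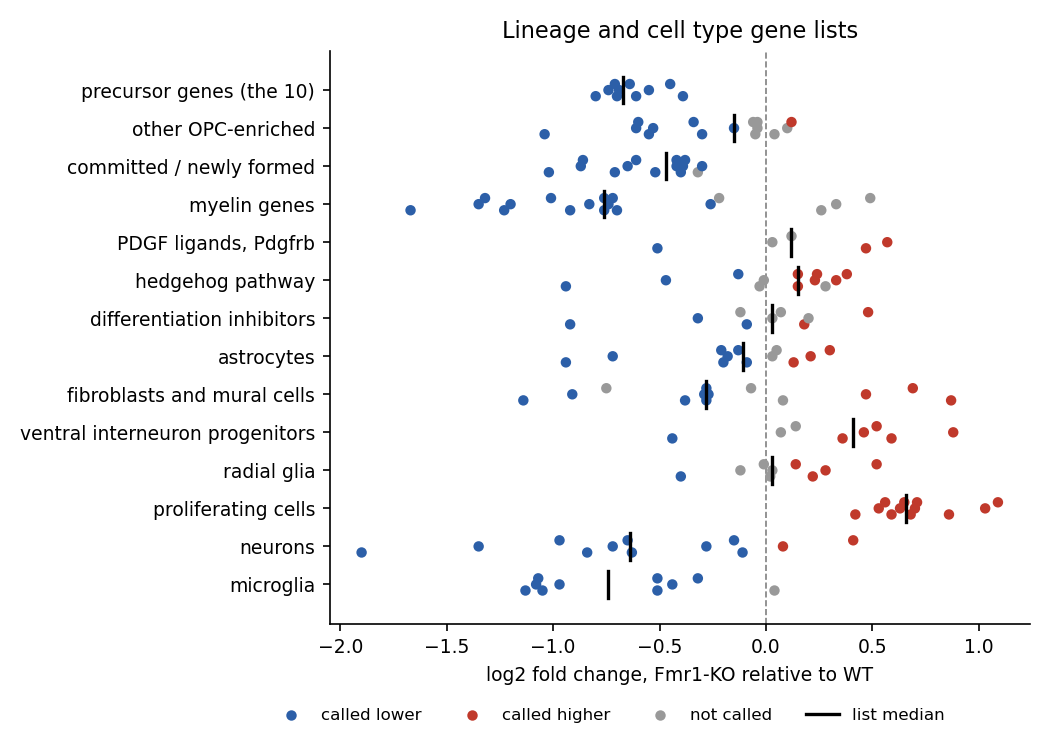
Log2 fold change of every gene, Fmr1-KO relative to WT, in the 10 OPC genes and 13 further lists, with points coloured by call (blue lower, red higher, grey not called) and a black bar at each list's median. The 10 OPC genes, the committed and newly formed oligodendrocyte genes (13 of 14 called lower) and the myelin genes (14 of 18) lie mostly left of 0. So do the neuronal genes (10 of 12) and the microglial genes (9 of 10), and the 12 proliferation genes lie right of it.

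Genes for the PDGF ligands and the other PDGF receptor moved in different directions. Pdgfa, a ligand of the receptor made from Pdgfra, had 1052, 1074 and 1053 counts in WT and 692, 665 and 811 counts in Fmr1-KO. All Fmr1-KO libraries were below the WT libraries, and Pdgfa fell by 0.51 on the log2 scale (SE 0.05, adjusted P 1.28e-07 by edgeR). The receptor gene Pdgfrb, a marker of mural cells, rose (0.47, SE 0.05, adjusted P 2.96e-08 by edgeR), as did the ligand gene Pdgfd (0.57, SE 0.13, adjusted P 0.000912 by edgeR). Pdgfc did not pass the test (0.12, 95% interval -0.03 to 0.28), nor did Pdgfb (0.03, 95% interval -0.16 to 0.22).

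Hedgehog signalling induces OPCs in the embryonic brain. Of 12 genes of the pathway, 3 were called lower and 6 higher, against 21.9% and 20.7% of all tested genes. Shh, the ligand, had 83, 95 and 77 counts in WT and 38, 37 and 54 counts in Fmr1-KO. No library of one genotype came within the range of the other, and the log2 fold change of Shh was -0.94 (SE 0.17, adjusted P 0.000128 by edgeR). Ptch1, the receptor and a common readout of the pathway, did not pass the test (-0.01, 95% interval -0.09 to 0.07). Gli3, which acts mostly as a repressor, had the largest increase (0.38, SE 0.04, adjusted P 4.59e-07 by edgeR), and Cdon and Smo also rose (0.33 and 0.23).

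Of 9 genes that hold back oligodendrocyte differentiation, 3 were called lower and 2 higher, against 21.9% and 20.7% of all tested genes. Sox11, a SOX factor of immature neurons and precursors, had the highest CPM of the list and rose from 511 to 712 CPM (0.48, SE 0.03, adjusted P 9.23e-11 by edgeR). Id4 rose by 0.18 and Id2 fell by 0.09 on the log2 scale, and both encode inhibitors of basic helix-loop-helix factors. Bmp2, a bone morphogenetic protein, had the largest decrease (-0.92), from 2.71 to 1.43 CPM.

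Because some of the 10 genes are also used by other cells, lists for those cells were read from the same fit. None of their genes was at 0 counts throughout, and their part in the result was not tested. Beside their counts of calls, the shares of all tested genes were 21.9% lower and 20.7% higher. Fibroblast and mural cell genes, which share Pdgfra and Cspg4 as markers, had 7 of 13 called lower and 3 higher. Their summed level was 772 to 844 CPM in WT and 939 to 997 CPM in Fmr1-KO, and the contractile genes Acta2 and Tagln carried that difference. Without Acta2 and Tagln, set aside after their values were seen, the other 11 genes summed to 520.2 to 574 CPM in WT and 490.1 to 534 CPM in Fmr1-KO. These ranges overlapped. Of these 11, 7 were called lower and 1 was called higher (Pdgfrb, 0.47). Those called lower, named after their values were seen, included the fibroblast genes Col3a1 (-0.28), Dcn (-0.38) and Lum (-0.29) and the pericyte gene Rgs5 (-0.91). With a minimum fold change of 1.2 required, 2 genes of the whole list were called lower. Acta2, the actin of contractile cells, had the highest CPM of the list and rose (0.87), Tagln rose (0.69), Col1a1 fell (-0.28), Col1a2 did not pass the test (-0.07, 95% interval -0.15 to 0.02), and Abcc9, a pericyte channel subunit, fell most (-1.14).

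Ventral progenitors of interneurons express Olig1 and Olig2 in the embryo. Of 8 genes for them, 1 was called lower and 5 higher, and the summed level rose from 471 to 484 CPM in WT to 599 to 659 CPM in Fmr1-KO. Dlx1 and Dlx2 rose by 0.46 and 0.59 on the log2 scale, and Gsx2 by 0.88, whereas Lhx6 fell by 0.44. The direction of most of these genes was thus opposite to that of Olig1 and Olig2.

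Astrocyte genes were mixed, with 7 of 12 called lower and 3 higher and a summed level of 6124 to 6231 CPM in WT and 5441 to 5866 CPM in Fmr1-KO. Gfap and Atp1b2, the latter encoding the ACSA-2 antigen used for depletion, fell by 0.21 and 0.09 on the log2 scale. Slc1a3 did not pass the test (0.03, 95% interval -0.03 to 0.09), and Gja1 rose by 0.30. S100b, which oligodendrocyte lineage cells also express, fell most (-0.94), and Aqp4 fell from 524 to 319 CPM (-0.72). For radial glia, 1 of 9 genes was called lower (Hopx, -0.40) and 4 higher, with Pax6 at 0.52 and Vim at 0.22, while Fabp7 did not pass the test (-0.01). The summed level of these 9 genes was 3598 to 3660 CPM in WT and 3947 to 3996 CPM in Fmr1-KO.

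Proliferation genes moved opposite to the OPC genes. All 12 were called higher, with a median log2 fold change of 0.66 and a summed level of 638 to 687 CPM in WT and 1087 to 1161 CPM in Fmr1-KO. Mki67, Top2a and Pcna had log2 fold changes of 1.09, 0.86 and 0.42.

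Lower levels were not limited to the oligodendrocyte lineage. Among 12 neuronal genes, 10 were called lower and 2 higher, with a median log2 fold change of -0.64. The count called higher was 1 without WT replicate 1, without WT replicate 3 or without Fmr1-KO replicate 3. Nefl, a neurofilament, fell most (-1.90), Tubb3 and Map2 fell by 0.28 and 0.11 on the log2 scale, and Dcx and Elavl4 rose by 0.08 and 0.41. Among 10 microglial genes, 9 were called lower and 0 higher, with a median of -0.74 and a summed level of 293 to 313 CPM in WT and 175 to 197 CPM in Fmr1-KO. C1qb fell most (-1.13), and C1qa and Csf1r fell by 1.05 and 0.51 on the log2 scale. The size of the decrease in the 10 OPC genes was therefore in the range seen for these lists, and no difference between the lists was tested.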

How the data were processed

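RNA was measured in 6 libraries (3 WT, 3 Fmr1-KO), which the labels assign to genotype and replicate. The values that the authors deposited are raw counts per gene. Per their methods, FastP trimmed the single-end reads, which were mapped to GRCm38.p6 with STAR (2.7.6a in the submitters' processing notes) and counted over exons by featureCounts (reverse-stranded), and exons were summed by gene name. Such counts do not separate isoforms.

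The fit used edgeR 4.0.16 in R 4.3.3 (filterByExpr, TMM, glmQLFit, glmQLFTest, 2-sided) on genotype alone, with P values adjusted by Benjamini-Hochberg over 16976 tested genes and calls made under 0.05. The SE is the log2 fold change divided by the square root of F, and 95% intervals use its t quantile. The alternatives were DESeq2 1.42.0, RLE or upper-quartile factors, library totals with no factor, testing genes without a filter, a filter raised to a mean of 10 counts and 5 CPM, a minimum fold change of 1.2, a replicate block and leaving out each library.

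Replicates differed by more than counting noise (chi-square per degree of freedom 2.93 in WT and 3.18 in Fmr1-KO), and were kept as separate samples. The edgeR estimate of their variation beyond counting noise was 3.22% (common biological coefficient of variation). Neither value shows whether the libraries were separate animals or cultures. Gene positions and lengths were read from GENCODE M21 (GRCm38), in which 98.6% of tested names were found. The 10 members and the other lists were chosen with earlier results of these data known. Named from each list were the 3 genes of highest CPM and the largest called change in each direction, and from the loci the overlapping genes. Further genes were added after their values were seen. These were genes given as not called (Nkx6-2, Pdgfb, Mal, Ermn, Aspa, Gjb1, C1ql1 and Megf11) and Tagln, Col3a1, Dcn, Lum, Rgs5 and Aqp4. A few genes that this rule selects are not reported here.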

Additional observations from a re-analysis of the deposited data

How the results depend on the processing

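All 10 genes were called lower with DESeq2, with RLE or upper-quartile factors or none, without a filter or with the stricter one, with the replicate block and each of the 6 fits without 1 library. With a minimum fold change of 1.2, 9 were called lower, as Nkx2-2 was not, and among all tested genes 1340 were lower and 883 higher, against 3725 and 3506, since a stricter test calls fewer genes. The median log2 fold change of the 10 genes ran from -0.68 to -0.64 over all settings. DESeq2 called 3211 genes lower and 2699 higher. With library totals alone 3212 were lower and 4207 higher. Replicate numbers did not pair the libraries (correlations of same-numbered deviations -0.0274, 0.0310 and -0.0162). With the replicate block, 3694 genes were lower and 3488 higher. Pdgfra ran from -0.49 to -0.41 and Enpp6 from -0.85 to -0.75. Leaving out a library moved no list count by more than 1.5 times except that of neuronal genes called higher, given above. With the minimum fold change of 1.2, the other OPC-enriched genes had 5 called lower and 0 higher, the astrocyte genes 2 and 0, the fibroblast and mural genes 2 lower, the hedgehog genes 1 higher, the ventral progenitor genes 3 higher, the radial glia genes 1 higher, the inhibitors of differentiation 1 lower and 1 higher and the neuronal genes 1 higher. With the stricter filter, 1 gene of the PDGF list was called higher.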
